A study of Arabidopsis thaliana with 10 samples.

Results

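The plastid genome of Arabidopsis thaliana encodes the core subunits of the photosynthetic machinery, and the transcripts described here are those of its photosynthesis genes. Members were the probe sets whose single gene symbol was psa, psb, pet, atp or ndh followed by one capital letter, or rbcL, and whose locus lay on the plastid genome. The rule found 43 of 13356 named genes, each with 1 probe set, and used no measured value. They were 5 genes of photosystem I (psa), 15 of photosystem II (psb), 6 of the cytochrome b6f complex (pet), 6 of the ATP synthase (atp), 10 of the NDH complex (ndh) and rbcL.

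The samples were whole shoots, 10 days after germination (DAG), of the shr-2 mutant carrying pSHR:SHR-GR, so every group shared the mutation and the transgene. SHORT-ROOT (SHR) is a GRAS transcription factor, and its fusion to the glucocorticoid receptor (GR), driven by its own promoter, enters the nucleus when dexamethasone (DEX) is given. Control shoots were taken at 0 hr, and other shoots after 3, 6, 12 or 24 hr of 10 µM DEX, with DEX given at 9 DAG for the last group and at 10 DAG for the other DEX groups. Each group had 2 ATH1 arrays, which the design text calls biological replicates. There were no mock-treated arrays in the comparisons, so the effect of DEX, the hour of the day, plant age and handling cannot be told apart in any difference between times. SHR itself was not analysed here.

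Chloroplast genes are transcribed mostly in clusters, many of them by a bacterial-type polymerase encoded in the plastid, and the long transcripts are then cut and trimmed. Photosystem II splits water, the cytochrome b6f complex passes electrons on to photosystem I, the ATP synthase uses the resulting proton gradient, and the NDH complex returns electrons from photosystem I to the chain. The large subunit of Rubisco, the enzyme that fixes carbon dioxide, is the product of rbcL. The labelling kit primes on poly(A) tails, which most plastid transcripts lack or carry only briefly, so a change in transcript amount and a change in tailing cannot be told apart. Nor can fewer chloroplast-rich cells and less RNA per cell be told apart in whole shoots.

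The 10 arrays had median signals between 181.5 and 191.5, and replicate arrays of a group correlated at 0.9858 to 0.9909. RCA, the Rubisco activase of leaf cells, had signals of 18810 to 25490 on the 10 arrays. The root hair expansin EXPA7 stayed at or below 21.46, under the low-signal limit of 44.8 (the 30th percentile of mean signals). EXPA18, another root hair expansin, ranged from 9.996 to 85.23. It was lowest at 6 hr, at 30.8 and 9.996, where it fell by 1.52 (SE 0.28), and RCA too was lowest at 6 hr, at 19140 and 18810, with a log2 fold change of -0.35 that did not pass. The part of cell makeup in the results at 6 hr was not tested. RCA was 1 of 13 leaf mesophyll markers with a named probe set, and EXPA7 and EXPA18 were 2 of 6 for root hairs. None of the markers listed for guard cells, phloem or root endodermis, and none of those for the epidermis, had a probe set named for its locus. No member had a mean signal under the low-signal limit, so all 43 stayed in every count.

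Over the whole course more of the plastid photosynthesis transcripts varied than of the array as a whole. By limma's moderated F test over the 4 DEX times, 27 of the 43 passed at an adjusted p under 0.05, against a background of 13.2% of 22746 probe sets. Against 0 hr the members made 33 calls, of which 28 were lower and 5 higher. The calls were mostly lower at 3 and 6 hr, whereas the 3 at 12 hr were all higher. Between 6 and 12 hr all 15 members that changed rose, but with each array centred on its plastid probe sets, which sets their joint shift to about 0, 10 were higher and 6 lower. With that centring 19 members passed the F test, where 22.7% of all probe sets did. Leaving out 12 hr replicate 1 lowered the F count to 16, and leaving out control replicate 2 or 6 hr replicate 2 lowered it to 17. It was 7 when the variances were fitted without their trend with signal. Most calls that were lost without 1 array were lost only without an array of a compared group. For psbC, psbL, ndhJ, ndhK and ndhF against 0 hr, psbH at 6 hr, psbK at 24 hr and from 6 to 12 hr, ndhA, ndhH from 6 to 12 hr and psbB from 12 to 24 hr, arrays of other groups ended the call too.

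**Figure D1:**
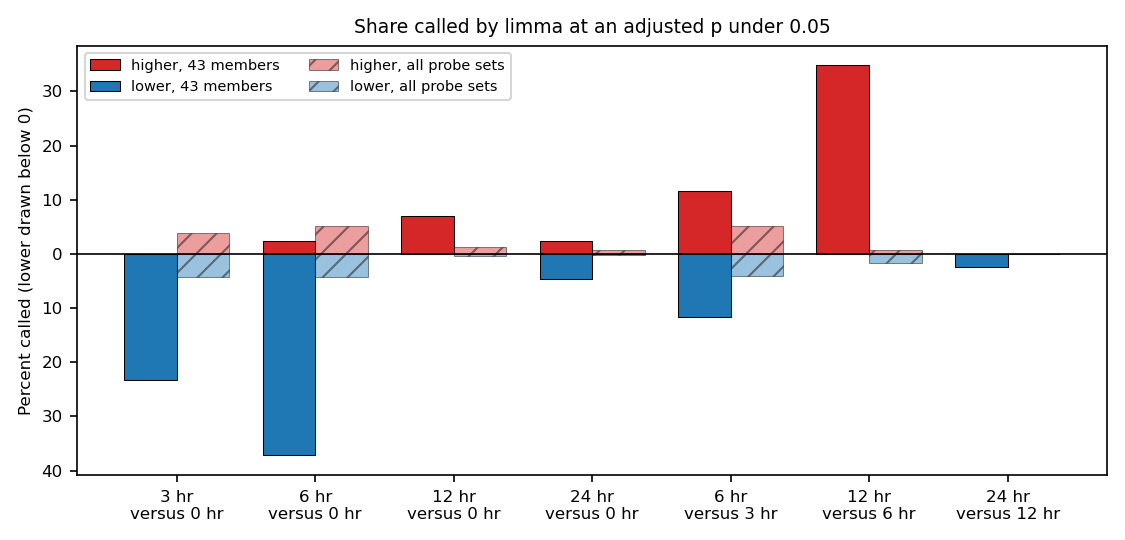
Percent of the 43 members (solid bars) and of all 22746 probe sets (hatched bars) called higher (above 0) or lower (below 0) in each comparison, by limma at an adjusted p under 0.05. The members stand out for lower calls at 3 hr and 6 hr and for higher calls from 6 hr to 12 hr, where 15 of 43 rose. After centring on plastid probe sets, which is not drawn, 3 were higher and 1 lower at 3 hr and 6 higher and 5 lower at 6 hr. From 6 to 12 hr 10 were then higher and 6 lower.

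At 3 hr 10 members fell and 0 rose, while 4.31% of all probe sets were called lower, 3.91% higher and 8.22% in either direction. They comprised 3 of 5 photosystem I genes, 4 of 15 photosystem II genes and 1 each of the cytochrome, ATP synthase and NDH groups. Both 3 hr arrays lay below both control arrays for 28 members, where the background was 27.3% of probe sets, and above both for 4 members, where it was 21.7%. The median log2 fold change of the members was -0.27, against -0.03 for all probe sets. The count of 10 was 3 without control replicate 1 and 5 without 3 hr replicate 2, and petA, psaJ and psbK kept their calls in each of the 10 fits without 1 array. With the plastid centring 3 members were higher and 1 lower, where 13.3% of all probe sets were called. Under that centring petA kept its call, whereas psaJ and psbK lost theirs.

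At 6 hr 16 members fell and 1 rose, with 4.19% of all probe sets lower, 5.17% higher and 9.36% called in either direction. Calls now took in 4 of 6 cytochrome b6f genes, 4 of 10 NDH genes, 6 of 15 photosystem II genes, 2 of 5 photosystem I genes and 1 of 6 ATP synthase genes. Both 6 hr arrays lay below both controls for 26 members, where the background was 31.8%, and above both for 6, where it was 21.2%. The median of the members was -0.31, against -0.05 for all probe sets. From 17 the total dropped to 6 or 9 when control replicate 1 or 2 was left out, and to 8 or 7 when 6 hr replicate 1 or 2 was. With the plastid centring 6 members were higher and 5 lower, where 17.3% of all probe sets were called. The members petN, psbB and psbK kept their calls in each of the 10 such fits.

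At 12 hr 3 members were called higher against 0 hr and 0 lower, where 1.27% of all probe sets were called higher, 0.33% lower and 1.6% in either direction. At 24 hr 2 members were lower and 1 was higher (1 and 1 with the plastid centring), at backgrounds of 0.242% lower, 0.717% higher and 0.958% in either direction. Both arrays lay below both controls for 10 members at 12 hr (26.4% of all probe sets) and 15 at 24 hr (24%), and above both for 18 (19.3%) and 10 (18.6%). The median of the members was 0.08 at 12 hr and -0.06 at 24 hr. These few calls depended on single arrays. Without control replicate 1 none passed by limma at either time. At an unadjusted p below 0.05, in the fit with all arrays, 15 members passed at 12 hr, against 13.2% of all probe sets, and 21 at 24 hr, against 13.8%. At 12 hr the count was also 0 without 12 hr replicate 1, and 1 without control replicate 2 or 12 hr replicate 2, and at 24 hr it was 1 without control replicate 2 or either 24 hr array.

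**Figure D2:**
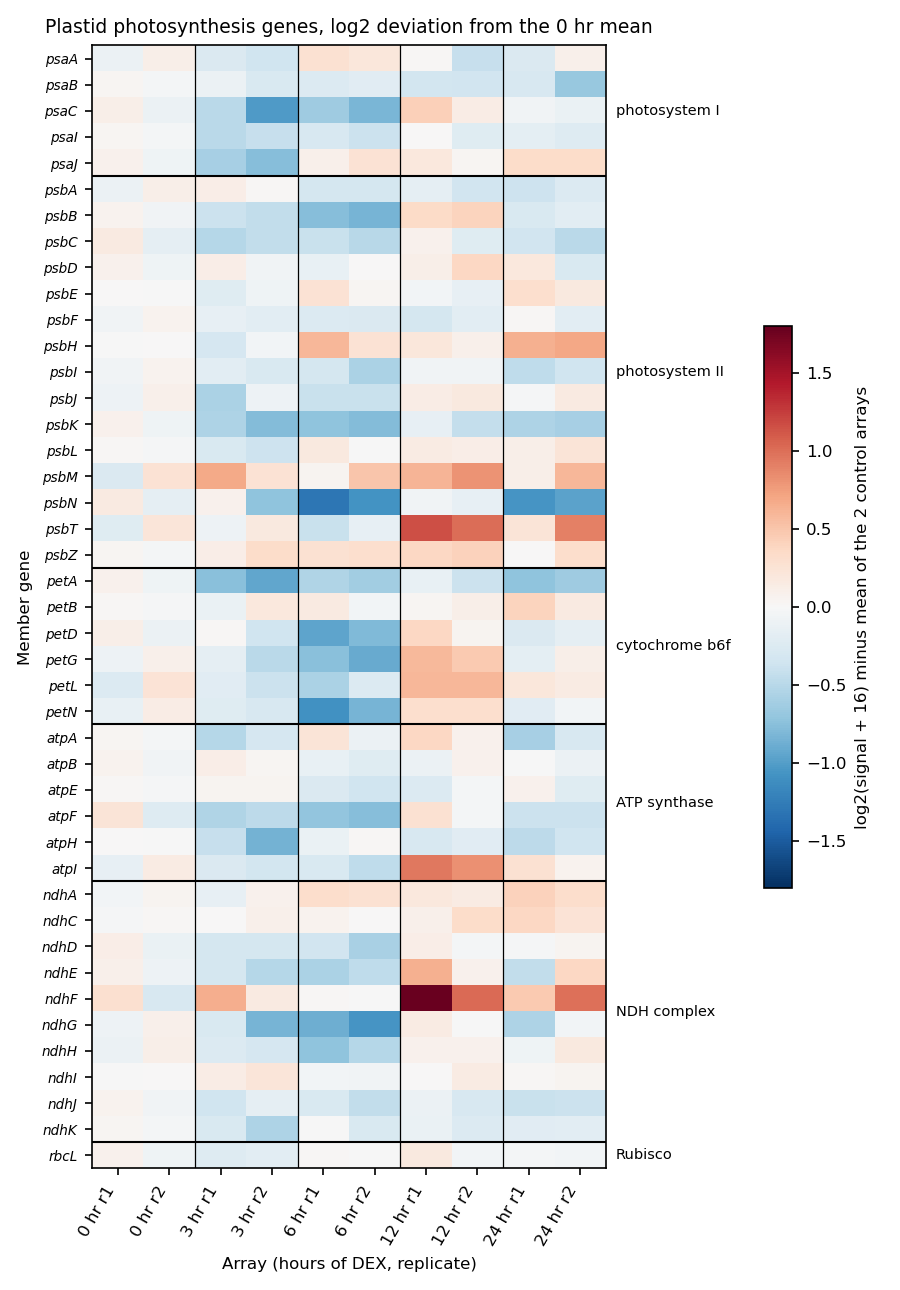
Log2 deviation of each of the 43 members (rows, by complex) from the mean of the 2 control arrays, on each of the 10 arrays (columns, in hours of DEX and replicate). Blue marks values below the control mean and red above it. Most rows are blue at 3 and 6 hr, and ndhF, psbT and atpI are reddest at 12 hr.

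By group mean 4 of the 5 photosystem I genes were lowest at 3 hr, though psaC had means of 237.1 at 3 hr and 237.2 at 6 hr. From 3 to 6 hr only psaJ passed. The signal of psaJ, a small subunit, was 2158 and 1939 on the control arrays, 1341 and 1196 at 3 hr, 2182 and 2442 at 6 hr, 2329 and 2094 at 12 hr and 2573 and 2580 at 24 hr. Only its 3 hr arrays lay below the controls. On the log2 scale it fell by 0.68 (SE 0.09) at 3 hr (limma, adjusted p = 0.00094) and rose again by 0.86 (SE 0.09) from 3 to 6 hr (adjusted p = 0.000162). With the plastid centring the fall lost its call and the rise kept it.

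The gene psaC encodes the iron-sulphur subunit that hands electrons to ferredoxin. Its signal was 435.8 and 371.9 at 0 hr, 284.5 and 189.6 at 3 hr, 253.2 and 221.2 at 6 hr, 546.9 and 441.9 at 12 hr and 384.4 and 370.8 at 24 hr. It was low at both early times, falling by 0.75 (SE 0.17) at 3 hr and by 0.73 (SE 0.17) at 6 hr, and its 12 hr arrays lay above both controls. It rose by 1.01 (SE 0.17) on the log2 scale from 6 to 12 hr (limma, adjusted p = 0.0123). Leaving out 1 array ended its call in 3 of 10 fits at 3 hr, in 4 at 6 hr and in 3 for the rise.

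The small subunit gene psaI had signals of 3081 and 2941 at 0 hr, 2145 and 2244 at 3 hr, 2473 and 2300 at 6 hr, 3020 and 2594 at 12 hr and 2656 and 2571 at 24 hr. It fell by 0.45 (SE 0.08) at 3 hr and by 0.33 (SE 0.08) at 6 hr on the log2 scale. These calls were lost in 2 and 4 of the 10 fits without 1 array. The reaction-centre genes psaA and psaB passed in no comparison. The signal of psaB was 12780 and 12220 at 0 hr, 11590 and 10350 at 3 hr, 10550 and 10900 at 6 hr, 9978 and 9833 at 12 hr and 10230 and 7794 at 24 hr. All 8 DEX arrays lay below both controls, with a log2 fold change of -0.48 at 24 hr (limma, adjusted p over all times by the F test = 0.0911). The signal of psaA was 75.11 and 89.02 at 0 hr, 65.99 and 60.37 at 3 hr, 102.2 and 97.01 at 6 hr, 83.07 and 57.42 at 12 hr and 65.6 and 88.56 at 24 hr, below both controls at 3 hr and above both at 6 hr.

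The photosystem I median log2 fold change stood at -0.45, -0.22, -0.10 and -0.09 at 3, 6, 12 and 24 hr. It kept its sign at each time when the arrays were scaled to a common median or quantile-normalized, the latter giving -0.05 at 6 hr.

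Photosystem II was the largest group and the most mixed, with members moving in opposite directions at the same time. The gene psbB encodes the core antenna protein CP47. Its signal was 490.3 and 448.6 at 0 hr, 354.1 and 342.3 at 3 hr, 268.4 and 256.1 at 6 hr, 602 and 626.9 at 12 hr and 383.5 and 407.8 at 24 hr. Every time was separated from 0 hr without overlap, below it at 3, 6 and 24 hr and above it at 12 hr. It fell by 0.41 (SE 0.09) at 3 hr and by 0.80 (SE 0.09) at 6 hr (limma, adjusted p = 0.000271), and rose by 1.18 (SE 0.09) on the log2 scale from 6 to 12 hr (adjusted p = 0.000114). Its 3 hr call was lost in 3 of 10 fits, and the other 2 in 0.

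The signal of psbK, a small core subunit, was 1971 and 1777 at 0 hr, 1268 and 1083 at 3 hr, 1124 and 1082 at 6 hr, 1694 and 1390 at 12 hr and 1269 and 1230 at 24 hr. All 8 DEX arrays lay below both controls. It fell by 0.67 (SE 0.11) at 3 hr, by 0.75 (SE 0.11) at 6 hr and by 0.58 (SE 0.11) at 24 hr on the log2 scale. The last call (limma, adjusted p = 0.0322) was lost in 6 of the 10 fits without 1 array. The neighbouring psbI, another small subunit, fell by 0.45 (SE 0.09) at 6 hr, where its signals were 1296 and 1090 against 1554 and 1699 at 0 hr, a call lost in 2 of 10 fits.

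The gene psbH, whose product is a phosphorylated subunit needed for assembly, was the one member that rose at 6 hr. Its signal was 1442 and 1456 at 0 hr, 1172 and 1393 at 3 hr, 2195 and 1738 at 6 hr, 1666 and 1546 at 12 hr and 2257 and 2363 at 24 hr. It lay above both controls from 6 hr on and below them at 3 hr. It rose by 0.43 (SE 0.11) at 6 hr (limma, adjusted p = 0.0365) and by 0.67 (SE 0.11) at 24 hr (adjusted p = 0.0192). These calls were lost in 5 and 4 of the 10 fits without 1 array.

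The gene psbN lies on the opposite strand between psbT and psbH, and its product is needed to assemble the photosystem II reaction centre. Its signal was 656.6 and 524.1 at 0 hr, 619.2 and 347.2 at 3 hr, 228.9 and 269.5 at 6 hr, 558.8 and 528.7 at 12 hr and 272.7 and 293.3 at 24 hr. The 6 and 24 hr arrays were low and the 12 hr arrays lay between the 2 controls. On the log2 scale psbN fell by 1.19 (SE 0.21) at 6 hr (limma, adjusted p = 0.00494), the deepest fall of any member at any time and lost in 2 of 10 fits. At 24 hr it stood at -1.01 and did not pass.

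The small subunit gene psbT had signals of 266.6 and 363.9 at 0 hr, 290.1 and 352.6 at 3 hr, 231.1 and 279.3 at 6 hr, 716.6 and 639.9 at 12 hr and 368.8 and 598.9 at 24 hr. The 12 hr arrays were higher than all others. It rose by 1.08 (SE 0.21) at 12 hr (limma, adjusted p = 0.0309), a call lost in 4 of 10 fits without 1 array.

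The antenna gene psbC (CP43) fell by 0.48 (SE 0.12) at 3 hr and by 0.45 (SE 0.12) at 6 hr, and psbL, a small subunit at the dimer interface, fell by 0.33 (SE 0.08) at 3 hr. Calls for psbC were lost in 5 of 10 fits at each time, and that for psbL in 6. The reaction-centre genes did not pass against 0 hr. The signal of psbA, which encodes the D1 protein, was 1067 and 1243 at 0 hr, 1256 and 1173 at 3 hr, 921.2 and 920.7 at 6 hr, 1024 and 907.9 at 12 hr and 883.4 and 964.9 at 24 hr. It fell by 0.39 from 3 to 6 hr (limma, adjusted p = 0.0246), a call lost in 4 of 10 fits. The signal of psbD, which encodes the D2 protein, was 240.1 and 214 at 0 hr, 246.4 and 215.9 at 3 hr, 205.4 and 228.2 at 6 hr, 244 and 297.6 at 12 hr and 260.1 and 185.4 at 24 hr, and its log2 fold changes ran from -0.06 to 0.23.

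The other 5 photosystem II members, psbE, psbF, psbJ, psbM and psbZ, passed in no comparison of 2 times, and of these psbJ passed the F test (adjusted p = 0.0409). Their log2 fold changes against 0 hr ran from -0.40 for psbJ at 6 hr to 0.71 for psbM at 12 hr. The photosystem II median was -0.18, -0.28, 0.13 and -0.04 at 3, 6, 12 and 24 hr.

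**Figure D3:**
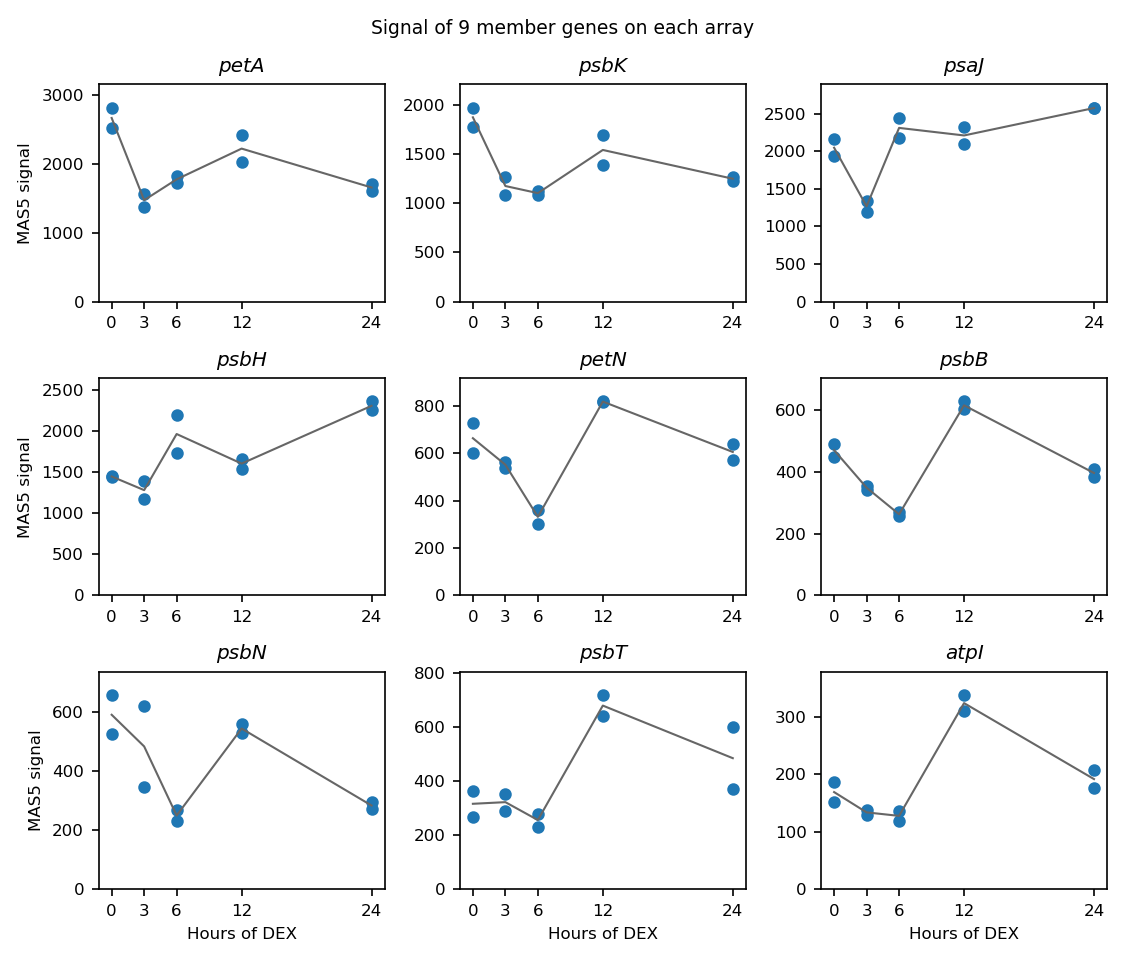
MAS5 signal (vertical axes, from 0) of 9 members on each array against hours of DEX. Points are single arrays and lines join the means of 2 arrays. The low at 3 hr of psaJ, the low at 6 hr of petN, psbB and psbN, and the high at 12 hr of psbT and atpI stand clear of the control arrays.

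Cytochrome b6f genes had the lowest median of the 5 complexes at 6 hr and the highest at 12 hr. The group median log2 fold change was -0.27, -0.71, 0.25 and -0.08 at 3, 6, 12 and 24 hr, and on single arrays it was -0.66 and -0.71 at 6 hr against 0.33 and 0.21 at 12 hr. The signs held with a common median and with quantile normalization. Whether these groups differed from each other was not tested.

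The signal of petN, a small subunit, was 599.8 and 728.5 at 0 hr, 564.7 and 539.6 at 3 hr, 302.1 and 361.5 at 6 hr, 818.5 and 819.4 at 12 hr and 572.6 and 639.5 at 24 hr. The 6 hr arrays were the lowest of all 10 and the 12 hr arrays the highest. It fell by 0.97 (SE 0.11) at 6 hr (limma, adjusted p = 0.000322) and rose by 1.27 (SE 0.11) on the log2 scale from 6 to 12 hr (adjusted p = 0.000216).

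The gene petG, for another small subunit, had signals of 226.6 and 259.3 at 0 hr, 215.6 and 168.3 at 3 hr, 137.5 and 121.2 at 6 hr, 372.8 and 341 at 12 hr and 211.9 and 262.1 at 24 hr. It followed the same order of times, falling by 0.83 (SE 0.16) at 6 hr (lost in 2 of 10 fits) and rising by 1.36 (SE 0.16) from 6 to 12 hr. The adjacent petL stood at -0.41 at 6 hr, which did not pass, and rose by 1.00 (SE 0.18) from 6 to 12 hr (lost in 3 of 10 fits). Subunit IV is the product of petD, whose signal was 217.2 and 185 at 0 hr, 204 and 152.7 at 3 hr, 96.59 and 108.5 at 6 hr, 263.1 and 207.7 at 12 hr and 165.4 and 177 at 24 hr. It fell by 0.87 (SE 0.17) at 6 hr and rose by 1.08 (SE 0.17) from 6 to 12 hr, each call being lost in 2 of 10 fits.

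Cytochrome f, the product of petA, had another order of times. Its signal was 2818 and 2521 at 0 hr, 1570 and 1380 at 3 hr, 1832 and 1723 at 6 hr, 2422 and 2027 at 12 hr and 1611 and 1707 at 24 hr. All 8 DEX arrays lay below both controls, and the 3 hr arrays were lowest. It fell by 0.85 (SE 0.10) at 3 hr (limma, adjusted p = 0.000443), by 0.58 (SE 0.10) at 6 hr (adjusted p = 0.00413) and by 0.68 (SE 0.10) at 24 hr (adjusted p = 0.00926), the last being lost without control replicate 1 or 24 hr replicate 1 and the 6 hr call without control replicate 1. Cytochrome b6 is encoded by petB, which passed in no comparison, with log2 fold changes of 0.03 to 0.28.

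ATP synthase genes divided by gene. The proton-channel subunit gene atpI had signals of 150.7 and 186.8 at 0 hr, 137.2 and 129.7 at 3 hr, 136.2 and 118.5 at 6 hr, 337.3 and 309.8 at 12 hr and 207.4 and 175.3 at 24 hr. The 12 hr arrays were the highest, at 0.88 (SE 0.15) above 0 hr (limma, adjusted p = 0.0161) and 1.25 (SE 0.15) above 6 hr (adjusted p = 0.00154) on the log2 scale. The first of these calls was lost in 3 of 10 fits without 1 array and the second in 0 of 10.

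The ring subunit gene atpH had signals of 1081 and 1061 at 0 hr, 796.7 and 589.1 at 3 hr, 980.2 and 1092 at 6 hr, 875 and 927 at 12 hr and 765.9 and 835.2 at 24 hr. It fell by 0.63 (SE 0.12) at 3 hr and rose by 0.58 (SE 0.12) from 3 to 6 hr, calls lost in 3 and 2 of 10 fits. The stalk subunit gene atpF had signals of 393.9 and 278.9 at 0 hr, 222.4 and 234.5 at 3 hr, 197 and 188.9 at 6 hr, 402.7 and 322.7 at 12 hr and 249.1 and 251.1 at 24 hr. It fell by 0.73 (SE 0.16) at 6 hr and rose by 0.85 (SE 0.16) from 6 to 12 hr, calls lost in 3 and 4 of 10 fits.

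The catalytic-head gene atpA had signals of 761.9 and 724.4 at 0 hr, 518.1 and 601.9 at 3 hr, 878.4 and 689.1 at 6 hr, 962 and 782.1 at 12 hr and 487.1 and 604.2 at 24 hr. It passed the F test (limma, adjusted p = 0.0265) and no single comparison. The remaining head genes atpB and atpE ran from -0.31 to 0.08 and passed in none. The ATP synthase median was -0.35, -0.24, 0.05 and -0.23 at 3, 6, 12 and 24 hr, with -0.06 at 6 hr after quantile normalization.

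Of the 10 NDH genes 4 fell at 6 hr, where 4.19% of all probe sets were called lower, and 1 at 3 hr, where 4.31% were. At each of these times 6 lay below both controls, at backgrounds of 31.8% at 6 hr and 27.3% at 3 hr. The gene ndhG had signals of 574.1 and 660 at 0 hr, 505.9 and 337.1 at 3 hr, 327.3 and 287.4 at 6 hr, 683.8 and 612.6 at 12 hr and 415.7 and 597.1 at 24 hr. Its 3 hr and 6 hr arrays lay below both controls, and it fell by 0.97 (SE 0.19) at 6 hr and rose by 1.04 (SE 0.19) on the log2 scale from 6 to 12 hr, calls lost in 2 and 4 of 10 fits. The signal of ndhD was 1505 and 1280 at 0 hr, 1108 and 1113 at 3 hr, 1095 and 921 at 6 hr, 1506 and 1349 at 12 hr and 1373 and 1431 at 24 hr. It fell by 0.46 (SE 0.10) at 6 hr and rose by 0.50 (SE 0.10) from 6 to 12 hr, calls lost in 2 and 3 of 10 fits.

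Both ndhH and ndhJ also fell at 6 hr, by 0.62 (SE 0.15) and 0.35 (SE 0.10), and ndhK fell at 3 hr, by 0.41 (SE 0.11). They encode subunits on the stromal side of the complex. Leaving out 1 array ended these calls in 4, 6 and 7 of the 10 fits. The membrane subunit gene ndhF had signals of 129.3 and 81.51 at 0 hr, 172 and 117.2 at 3 hr, 105.3 and 102.5 at 6 hr, 394.4 and 224.2 at 12 hr and 148.4 and 220.1 at 24 hr. Its 12 hr arrays were the highest, though they differed from each other by more than the 2 controls did. It rose by 1.40 (SE 0.29) at 12 hr (limma, adjusted p = 0.0398), a call lost in 7 of 10 fits without 1 array.

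The membrane subunit gene ndhA had signals of 6439 and 6834 at 0 hr, 5987 and 7003 at 3 hr, 8257 and 7999 at 6 hr, 7559 and 7354 at 12 hr and 8824 and 8270 at 24 hr. It passed the F test (adjusted p = 0.0283) and from 3 to 6 hr, where it rose by 0.33 (a call lost in 7 of 10 fits), and no comparison with 0 hr. The other 3 members, ndhC, ndhE and ndhI, passed in none, with log2 fold changes from -0.51 to 0.36. The NDH median was -0.26, -0.25, 0.08 and 0.02 at 3, 6, 12 and 24 hr. The probe set named for both copies of ndhB, which the rule left out, had signals of 45.55 and 96.1 at 0 hr and 42.73 to 84.7 on the DEX arrays.

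The signal of rbcL was 2879 and 2569 at 0 hr, 2320 and 2387 at 3 hr, 2749 and 2703 at 6 hr, 3062 and 2633 at 12 hr and 2650 and 2630 at 24 hr. Only its 3 hr arrays were separated from the controls, at a log2 fold change of -0.21 that did not pass, and its F test had an adjusted p of 0.207.

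**Figure D4:**
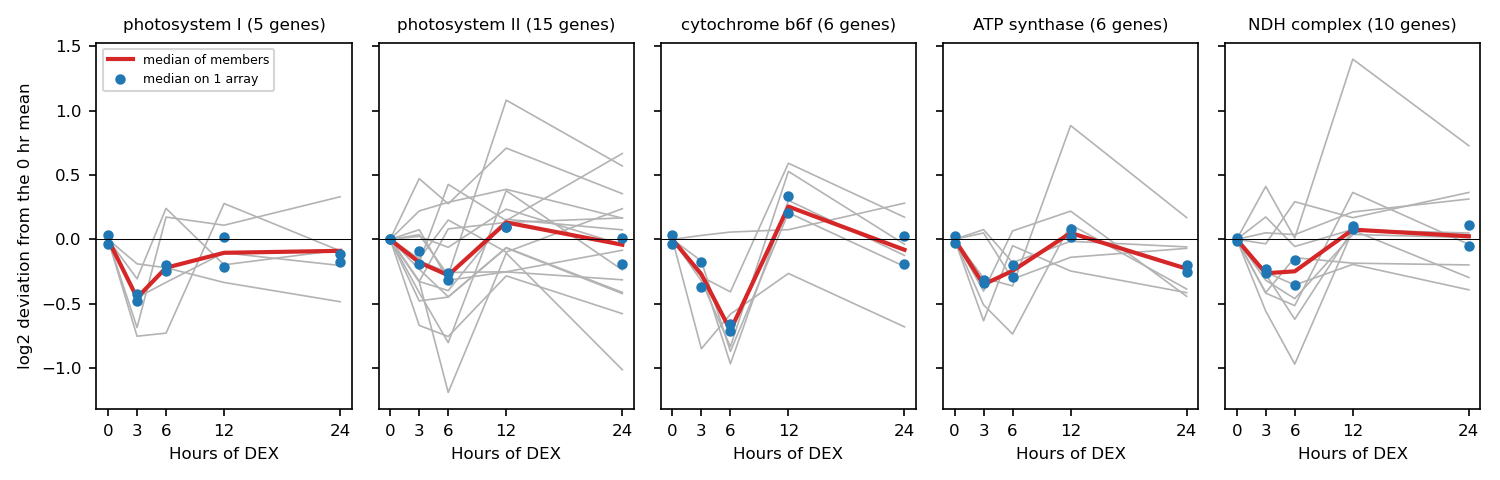
Log2 deviation from the 0 hr mean against hours of DEX for the 5 complexes. Grey lines are the means of single genes, the red line is the median of these means and blue points are the median over genes on each array. The cytochrome b6f median is lowest at 6 hr, -0.71, and highest at 12 hr, 0.25, and the photosystem I median is lowest at 3 hr, -0.45.

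The change from 6 to 12 hr used no control array. Of the 43 members 15 rose and 0 fell, whereas 0.712% of all probe sets were called higher, 1.68% lower and 2.39% in either direction. With the plastid centring 10 were higher and 6 lower, at a background of 15.7%, and the median of the members turned from 0.30 to -0.06. Risers were 4 of 6 cytochrome b6f genes, 4 of 15 photosystem II genes, 4 of 10 NDH genes, 2 of 6 ATP synthase genes and 1 of 5 photosystem I genes. By mean signal they were 13 of 19 members under 1000, 2 of 12 from 1000 to 5000 and 0 of 12 at 5000 or more. Of all probe sets in these ranges 1.88%, 5.77% and 2.26% were called in either direction. The members' median log2 changes there were 1.01, 0.19 and 0.12. The parts of complex and signal level in the rise were not tested. Both 12 hr arrays lay above both 6 hr arrays for 28 members, where the background was 24.8%. From 15 the count dropped to 6 or 7 when 6 hr replicate 1 or 2 was left out and to 4 or 7 when 12 hr replicate 1 or 2 was, and atpI, petG, petN and psbB kept their calls in every fit without 1 array.

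The step from 3 to 6 hr divided the members, with 5 that rose and 5 that fell, at backgrounds of 5.16% higher, 3.99% lower and 9.14% in either direction. The risers were psaJ, psbH, atpH, psbL and ndhA, and the fallers were psbN, petN, petD, psbA and psbB. Here the count of 10 dropped to 4 or 6 when 3 hr replicate 1 or 2 was left out and to 3 or 5 when 6 hr replicate 1 or 2 was. Both 24 hr arrays lay below both 12 hr arrays for 21 members, where the background was 20.4%. From 12 to 24 hr 1 member, psbB, fell by 0.62 (SE 0.09), with 0.0923% of all probe sets called lower, 0.022% higher and 0.114% in either direction, a call lost in each of the 10 fits without 1 array. With the plastid centring 1 member was higher there and 0 lower.

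Comparisons without a shared array could be set against each other as a description across the 43 genes, which share arrays within each comparison and often a transcript. The log2 change from 0 to 6 hr and that from 12 to 24 hr had a Pearson r of 0.61 and a Spearman rho of 0.59, with the same sign in 36 genes. For the change from 0 to 3 hr and that from 6 to 12 hr r was -0.06 and rho -0.14. For 0 to 3 hr with 12 to 24 hr they were 0.135 and 0.24. For 3 to 6 hr they were -0.25 and -0.21 with 0 to 12 hr, and 0.55 and 0.51 with 12 to 24 hr. Across the members mean signal had a Spearman rho of 0.45 with the change from 0 to 6 hr and 0.58 with that from 12 to 24 hr. The part of signal level in these correlations was not tested.

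Low and high points differed by gene. Of the 43 members 23 had their lowest group mean at 6 hr, 13 had it at 3 hr, 4 before DEX and 3 at 24 hr. The highest mean fell at 12 hr for 20 members, 11 had it before DEX and 7 at 24 hr, and the remaining 5 had it at 3 hr (4) or 6 hr (1). The same shares over all probe sets were not counted, so how unusual these counts are cannot be told.

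Genes that lie side by side sometimes shared a course and sometimes did not. On the strand that runs from petL to petG and on to psaJ, rpl33 and rps18, the first pair was lowest at 6 hr and highest at 12 hr, with r = 0.91 between them over the 8 DEX arrays. The next gene, psaJ, had its low at 3 hr, as did the ribosomal protein genes rpl33 and rps18, which fell at 3 hr by 0.58 and 0.60 and rose from 3 to 6 hr by 0.68 and 0.63. In the psbB cluster psbB and petD fell at 6 hr while psbH rose, and psbN on the opposite strand fell. In the cluster that ends with rps14, the ribosomal protein gene rps14 fell by 1.25 at 6 hr and rose by 1.53 from 6 to 12 hr, while psaA and psaB passed at neither. These neighbours also differed in signal. The mean signal was 201 for petL, 231.6 for petG, 418 for psbB, 177.7 for petD, 429.9 for psbN and 326.7 for rps14. It was 2083 for psaJ, 4735 for rpl33, 1251 for rps18, 1723 for psbH, 10620 for psaB and 78.44 for psaA. The part of signal level in the unlike courses was not tested.

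Over all pairs of members in 1 cluster the median r of the courses was 0.33 (56 pairs), against 0.28 for 847 pairs in different clusters. For pairs in 1 cluster but of different complexes it was 0.66 (15 pairs), and for pairs of 1 complex in different clusters 0.25 (149 pairs). Pairs that share a gene, such as psaC with each ndh gene of its cluster, are not independent. Differences between these medians were not tested. Within single clusters it ran from -0.15 for psaA with psaB to 0.90 for atpB with atpE.

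**Figure D5:**
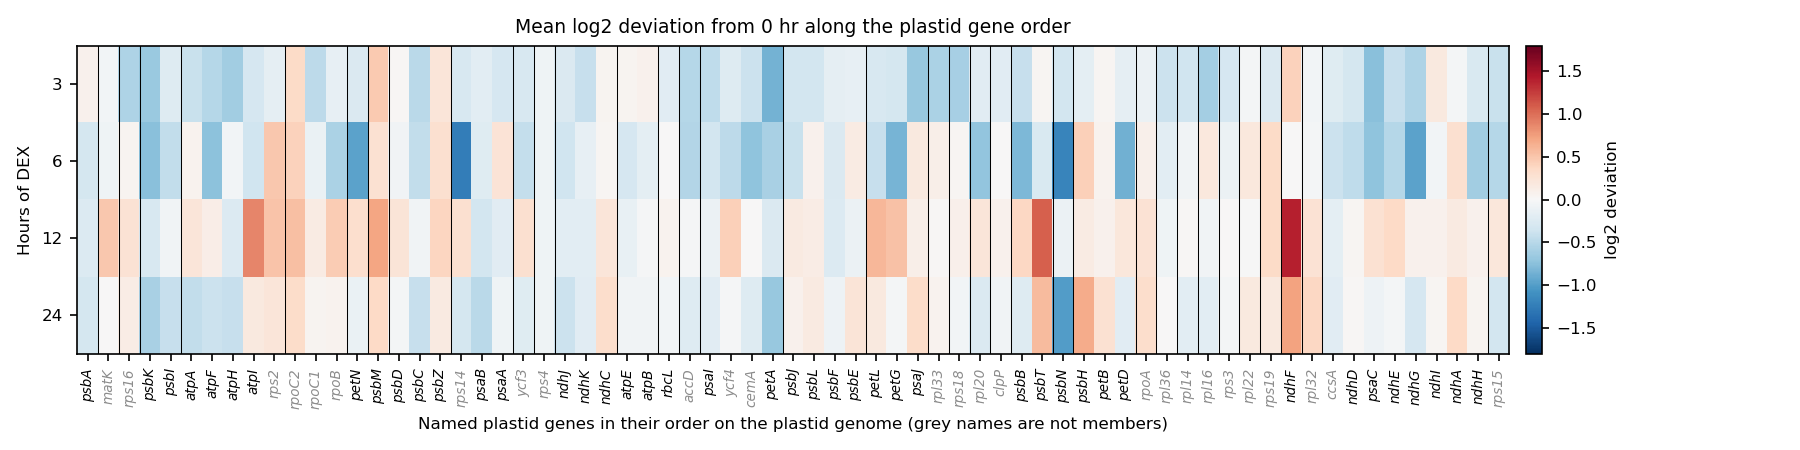
Mean log2 deviation from 0 hr at 3, 6, 12 and 24 hr (rows) for the 69 named plastid genes in their order on the plastid genome (columns, evenly spaced). Thin lines separate co-transcribed clusters, and names in grey are not members. Genes not assigned to a cluster, such as rpl33 and rps18, are also lined off singly, which says nothing about how they are transcribed. Blue is lower and red higher than 0 hr. Adjacent genes such as psaJ, rpl33 and rps18 share a low at 3 hr, whereas psbN and psbH beside it have opposite colours at 6 hr.

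Signal strength went with the calls. Of 19 members with a mean signal under 1000, 15 passed the F test, where 9.79% of all probe sets in that range did. Of 12 members with a mean from 1000 to 5000, 10 passed, against 33.5% of all. Of 12 members with a mean of 5000 or more, 2 passed, psbJ and ndhA, against 23% of all. Among these bright probe sets the members' median log2 change stayed between -0.05 and 0.12 in every comparison. The deposited values carry no saturation mark, and its part in the result was not tested.

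Other plastid genes moved partly alongside. Of 19 ribosomal protein and polymerase genes 6 fell at 3 hr and 2 at 6 hr, and 4 rose from 6 to 12 hr, with 0 in the opposite direction at each of these steps. Their median was -0.29 at 3 hr and -0.04 at 6 hr, the latter turning to 0.03 after quantile normalization. Of 7 further plastid genes 2 fell at 3 hr and 4 at 6 hr, and 4 rose from 6 to 12 hr. Of all probe sets 4.31% were called lower at 3 hr, 4.19% lower at 6 hr and 0.712% higher from 6 to 12 hr. In either direction 10.5% of the 19 genes were called at 6 hr, near the 9.36% of all probe sets. Among the 7 further genes, cemA, the envelope protein gene just upstream of petA, fell by 0.39 and 0.72 at 3 and 6 hr, and rose by 0.73 from 6 to 12 hr. The photosystem I assembly factor genes ycf3 and ycf4 rose by 0.72 and 0.90 in that last step.

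Nuclear genes of the same complexes also included some that fell. Of 12 measured nuclear subunit genes 3, 3, 1 and 0 fell at 3, 6, 12 and 24 hr, and none rose at any of these times. Of all probe sets 4.31%, 4.19%, 0.33% and 0.242% were called lower at these times. From 6 to 12 hr limma called 0 of the 12, against 2.39% of all probe sets. In that step 4 had an unadjusted p below 0.05 by limma, against 13.8% of all probe sets. Yet 8 of the 12 lay below both controls on both 6 hr arrays (31.8% of all probe sets), and 10 of the 12 had both 12 hr arrays above both 6 hr arrays (24.8%), with a median log2 difference of 0.19. The antenna gene LHCB4.3 fell by 0.93, 0.77 and 0.42 at 3, 6 and 12 hr. The NDH subunit gene NdhN fell by 0.47 at 3 hr and 0.42 at 6 hr, NdhL by 0.42 at 3 hr, and PSAN of photosystem I by 0.43 at 6 hr. Their median was -0.02 at 3 hr, which became 0.04 with a common median, and -0.29 at 6 hr, or -0.11 after quantile normalization. A further list held 13 nuclear genes with CRR, HCF, LPA and OTP symbols, most of them for plastid RNA editing or processing factors. Of these 13, 2 were called at 3 hr (8.22% of all probe sets), 1 at 6 hr (9.36%) and 0 at 12 and 24 hr. By the F test 1 passed, against 13.2% of all probe sets. At 3 hr the RNA editing factor gene OTP81 rose by 0.60 and HCF101, an iron-sulphur assembly factor gene, fell by 0.25. The call at 6 hr, where the list's 7.69% was near the share of all probe sets, was CRR42. This NDH assembly factor gene fell by 0.46. Differences between these lists and the members were not tested.

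Control probe sets for 2 rRNAs, which lack a poly(A) tail, had unlike courses. The control probe set for 5S rRNA had signals of 123.9 and 143.4 at 0 hr, 122.5 and 114 at 3 hr, 89.82 and 97.63 at 6 hr, 214.6 and 182.8 at 12 hr and 103.8 and 156 at 24 hr. It was lowest at 6 hr and highest at 12 hr. Of the 43 members 23 had their lowest mean at 6 hr and 20 their highest at 12 hr, with no share of all probe sets counted beside these. The 25S rRNA control ran from 4567 on 3 hr replicate 2 to 6583 on 24 hr replicate 2, with 5959 and 5835 at 0 hr, 5775 and 5996 at 6 hr and 6061 and 5341 at 12 hr. The ratio of 3′ to 5′ signal of GAPDH, a measure of RNA integrity, was 2.128 and 2.28 at 0 hr, 2.056 and 2.262 at 3 hr, 1.918 and 1.958 at 6 hr, 2.042 and 2.502 at 12 hr and 1.854 and 1.806 at 24 hr. The same ratio for ubiquitin was 3.071 and 2.941 at 3 hr, above both controls at 2.657 and 2.696, and ran from 2.434 to 2.895 at later times. For actin it ran from 12.69 on 24 hr replicate 2 to 28.58 on 6 hr replicate 1, with 24.66 and 21.55 at 0 hr. Their part in the results on the members was not tested.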

How the data were processed

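Each array's file held MAS5 intensity values, 1 per probe set, which the authors deposited unlogged. Per the submitters' processing notes the software was Affymetrix Expression Console 1.1. The scaling target is not given in the sources used here, and the mean of every array after trimming 2% was 500. RNA (300 ng per sample) was labelled with a 3′ IVT kit, per the labels' protocols. Of 22810 probe sets, 64 controls were set aside. The probe table named 1 gene for 13513 probe sets and several for 503, and did not list 8730. Plastid loci and gene order came from RefSeq for TAIR10.1.

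Values were log2(signal + 16), fitted in limma 3.58.1 (R 4.3.3) with 1 mean per group over all 10 arrays and an intensity trend of the variances (5 residual and 5.86 prior degrees of freedom). The number of arrays limits the precision. Tests were two-sided, and p-values were adjusted by Benjamini and Hochberg across the 22746 others at a threshold of 0.05. A log2 fold change carries the SE of the fit and understates changes of dim probe sets. With 2 arrays in each group, exact permutation p-values stop at 0.33 and were not used. Complexes and lists are described by counts and medians. The procedure was run on simulated data with independent noise and shifts larger than most member changes. That run cannot vouch for the calls made here. Members, lists, clusters and alternatives were chosen with earlier results of these data known. The text names each member called against 0 hr, with every array for up to 4 members per complex with the smallest F test p and for rbcL, psaA, psbA and psbD. The arrays of psbN, and the genes named outside the members, were chosen after their values were seen. Marker FDH was left out because its symbol led to another locus. Protein lengths were not used here. Alternatives were offsets of 1 and 64, 3 scalings, a low-signal filter, no intensity trend, fits of 2 groups, a replicate block and leaving out each array.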

Additional observations from a re-analysis of the deposited data

Results flagged for a closer look

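Levels of 21 members differed between successive times by limma's test of that difference, in 26 comparisons. Of all probe sets 9.14% were called from 3 to 6 hr, 2.39% from 6 to 12 hr and 0.114% from 12 to 24 hr, in either direction. From 6 to 12 hr the log2 differences were 0.85 for atpF, 1.25 for atpI, 0.50 for ndhD, 1.39 for ndhF, 1.04 for ndhG, 0.69 for ndhH, 1.08 for petD, 1.36 for petG, 1.00 for petL and 1.27 for petN. In the same step they were 1.01 for psaC, 1.18 for psbB, 0.47 for psbK, 1.08 for psbN and 1.36 for psbT. From 3 to 6 hr the differences were 0.58 for atpH, 0.33 for ndhA, 0.86 for psaJ, 0.61 for psbH and 0.41 for psbL on the higher side. On the lower side they were -0.70 for petD, -0.71 for petN, -0.39 for psbA, -0.39 for psbB and -0.86 for psbN. From 12 to 24 hr psbB differed by -0.62. The members petD, petN, psbB and psbN appear in both of the first 2 steps with opposite signs.

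Outside the tested probe sets, the 5S rRNA control had a mean signal of 199 at 12 hr, with both arrays above both control arrays, whose mean was 134.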

How the results depend on the processing

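Total counts of members called stayed within 1.5 times under offsets of 1 and 64, a common median and quantile normalization. Without the intensity trend of the variances they were 3, 8, 0 and 0 at 3, 6, 12 and 24 hr against 0 hr, 2 from 3 to 6 hr, 5 from 6 to 12 hr, 0 from 12 to 24 hr and 7 by the F test. With only the 2 groups compared in the fit they were 4 at 3 hr, 11 at 6 hr, 1 at 24 hr, 3 from 3 to 6 hr and 0 from 12 to 24 hr. Centred on plastid probe sets, they were 4 at 3 hr, 11 at 6 hr and 5 from 3 to 6 hr, the 16 from 6 to 12 hr split into 10 higher and 6 lower, and psaI at 6 hr turned to 0.0041. Without the lowest 30% of probe sets, 8 passed at 24 hr. Leaving out 1 array gave 3 to 9 at 3 hr, 6 to 18 at 6 hr, 0 to 4 at 12 hr, 0 to 4 at 24 hr, 3 to 11 from 3 to 6 hr, 4 to 15 from 6 to 12 hr, 0 to 0 from 12 to 24 hr and 16 to 27 by the F test. The lone array of a group was then assumed to vary like the other groups. Of 59 calls, 12 held in all 10 such fits. The cause of these changes was not tested.

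Same-numbered arrays of different groups had deviations that correlated at -0.036 to 0.088 over 10 pairs of groups, so the numbers were not taken as pairs. With the replicate block, counts were 10, 15, 3 and 3 against 0 hr, 9 from 3 to 6 hr, 16 from 6 to 12 hr, 0 from 12 to 24 hr and 27 by the F test. The calls of psbH (the riser) and ndhJ at 6 hr, ndhA from 3 to 6 hr and psbB from 12 to 24 hr were lost under the block. Using every probe set of a member gave no other value, since each had 1.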
